A study of Gallus gallus with 12 samples.

Results

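The interleukins and interleukin receptors of the chicken were followed in the utero-vaginal junction (UVJ), the oviduct segment whose tubules store sperm. Members were all symbols on the array beginning with IL and a number, each represented by its brightest feature, which gave 55 of 17957 named symbols. Of these, 23 were ligands and 32 were receptors or receptor-like proteins, and they came from 68 features.

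Interleukins are small secreted proteins through which leucocytes, epithelium and stroma signal to each other, and each acts through a surface receptor assembled from a ligand-binding chain and shared chains. The IL1 family drives acute inflammation, the IL2 and IL4 families support lymphocyte growth and antibody responses, and the IL6, IL12, IL10 and IL17 families steer T cells, mucosal defence and the ending of inflammation. In the hen's oviduct the mucosa holds resident lymphocytes, and foreign sperm remain in the UVJ for weeks, so that these genes bear on how the tissue meets semen.

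White Leghorn hens in 3 groups of 4 were sampled 24 h after treatment, with a single hen per array. Control hens were neither mated nor inseminated, mated hens were each paired with a single male, and seminal fluid (SF) hens received sperm-free fluid, pooled from the males used for mating, into the cloaca. Among mated hens, the hen and its male cannot be told apart. Controls had no sham infusion, so that the fluid and the procedure cannot be told apart. The array numbers ran from 1 to 12 in the order control, mated, SF, so that array number and treatment cannot be told apart either.

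Values are log2 intensities, and differences are log2 differences with the standard error (SE) of a limma fit over all arrays. The brightness of a feature depends on its probes, so levels of different genes are not set against each other. Array medians of intensity ranged from 1077 to 1102, and the random-sequence control, the mark of background here, lay at 3.81 to 3.95. Of the 55 interleukin genes, 45 were above the random control on all 12 arrays and 6 (IL1RAPL1, IL1RAPL2, IL5, IL5RA, IL8 and IL9) on some of them. IL2, IL21, IL26 and IL17REL, a receptor-like gene of the IL17 family, were above it on no array. The tissue is a mixture of cells, and fewer cells of a type cannot be told apart from less RNA per cell.

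In the comparison of mating with control, 1 of the 55 genes passed, with a higher level, an unadjusted p of 0.05 (termed suggestive in the study), where 2.22% of all 37374 features passed and 1.35% did so with a higher level. In the comparison of SF-infusion with control, 6 of 55 passed, all with higher levels in SF hens, where 6.47% of all features passed and 4.15% passed with a higher level. In 4 of the 55 genes all SF values lay above all control values, as they did in 2.47% of all features. In the comparison of mating with SF-infusion, 1 of 55 passed, with a higher level in mated hens, where 4.7% of all features passed and 2.04% were higher. No gene passed after adjustment over all features in any comparison (0 of 37374 features, 0% called in each), and the smallest adjusted p of an interleukin gene in limma was 0.735.

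Over all 55 genes, those past the threshold included, most differences lay on the positive side. The median difference of the 55 genes was 0.23 in mated and 0.24 in SF hens against control, beside 0.00 over all named symbols in both. A positive difference was measured for 43 of 55 genes (78.2%) in each comparison, beside 51.3% of all named symbols for mating and 50.5% for SF. Both comparisons use the same 4 control hens. Without mated hen 4, 27 genes were positive and 28 negative for mating and the median was -0.05. Without mated hen 3 it was 0.42, and without control hen 3 it was 0.12. For SF the count of positive genes lay between 39 and 48 and the median between 0.16 and 0.31 whichever hen was left out. Once the array number entered as a covariate, the SF median was -0.23 and 19 genes were positive.

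**Figure D1:**
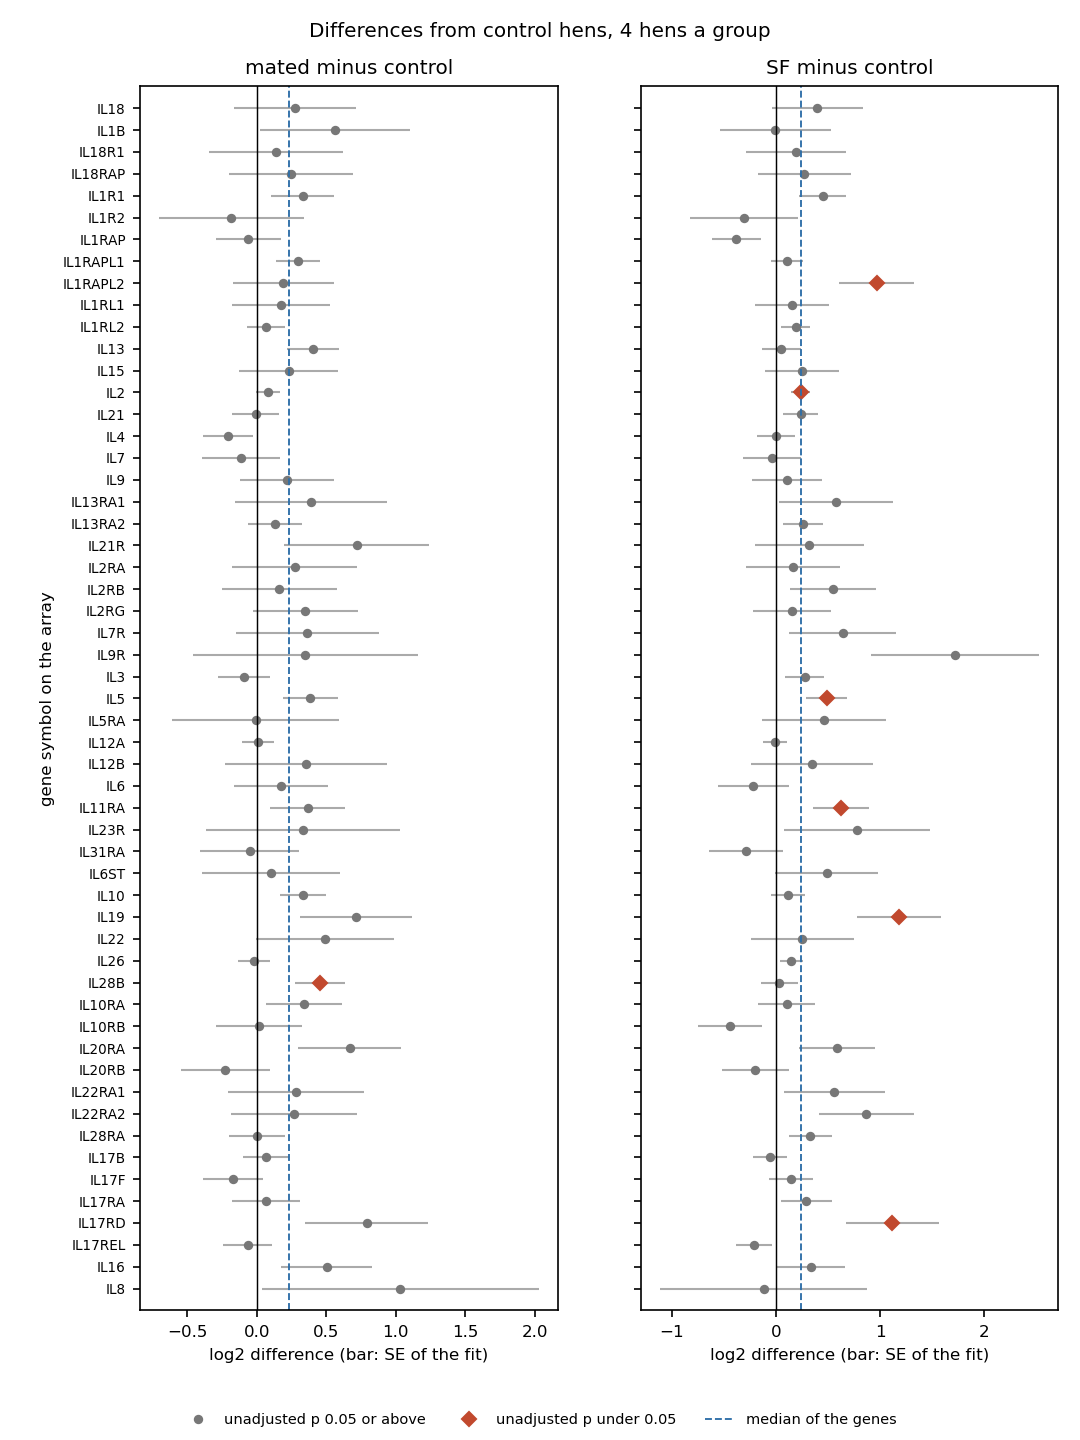
Log2 difference from control hens (horizontal axis, bars show the SE of the fit) for each of the 55 genes (vertical axis) in mated (left) and SF hens (right), with 4 hens in each group. Red diamonds mark genes past unadjusted p 0.05, 1 for mating and 6 for SF, and the dashed lines mark the medians of 0.23 and 0.24.

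Among the ligands, IL19 had the largest difference of the genes that passed in SF hens. IL19 belongs to the IL10 family and in mammals acts mainly on epithelium. Its level was 5.12, 5.69, 5.72 and 6.02 in control hens. It was 6.47, 8.02, 6.78 and 6.02 in SF hens. It was 5.89, 7.07, 6.02 and 6.43 in mated hens. All SF values lay above all control values, although SF hen 4 and control hen 4 were equal to the second decimal, and SF hen 2 was highest. The mean was 5.64 ± 0.37 in control, 6.82 ± 0.85 in SF and 6.35 ± 0.53 in mated hens (SD, n = 4). The difference between SF and control was 1.19 (SE 0.40, limma unadjusted p = 0.0135), a 2.27-fold higher intensity, and its call was kept when any single hen was left out, with differences of 0.79 to 1.45. The difference between mated and control hens was 0.71 (SE 0.40, limma unadjusted p = 0.105).

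IL5, the growth factor of eosinophils in mammals, and IL2, the growth factor of T cells, also passed in SF hens, both close to or under background. IL5 measured 3.79, 3.54, 3.78 and 3.86 in control hens, 4.08, 4.42, 3.65 and 4.36 in mated hens and 4.07, 4.72, 4.05 and 4.08 in SF hens. It was above the random control in 1 control hen, 3 mated hens and all SF hens, and the SF values did not overlap the control values. The SF difference was 0.49 (SE 0.20, limma unadjusted p = 0.0305), and it was 0.33 without SF hen 2, where it no longer passed. The mated difference was 0.39 (SE 0.20, limma unadjusted p = 0.0752). IL2 was 3.31, 3.18, 3.29 and 3.38 in control hens, 3.37, 3.33, 3.54 and 3.26 in mated hens, and 3.49, 3.48, 3.64 and 3.51 in SF hens. All 12 IL2 values were under the random control, so no fold is given, although SF and control values did not overlap (limma unadjusted p = 0.0216). With quantile normalisation over features IL2 no longer passed (limma unadjusted p = 0.106).

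The other SF calls were receptors. IL17RD is a receptor-like membrane protein also known as a brake on fibroblast growth factor signalling. It was 7.10, 6.68, 7.03 and 7.45 in control hens. It was 7.84, 8.18, 8.79 and 7.93 in SF hens. It was 7.73, 8.01, 6.55 and 9.13 in mated hens. Every SF value exceeded every control value, whereas the mated hens spanned the values of both. The SF difference was 1.12 (SE 0.44, limma unadjusted p = 0.0287), a 2.17-fold higher intensity, and the mated difference was 0.79 (SE 0.44, limma unadjusted p = 0.103).

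IL11RA, the binding chain for IL11, carried 2 features on the array. The brighter gave 8.93, 8.91, 8.60 and 9.32 in control hens and 8.99, 10.11, 9.81 and 9.35 in SF hens, so that the groups overlapped. The dimmer gave 6.86, 6.77, 6.74 and 6.84 in control hens and 7.03, 7.96, 7.79 and 7.42 in SF hens, without overlap. Among control and SF hens, both features placed SF hen 2 and SF hen 3 highest. The SF difference was 0.62 (SE 0.27, limma unadjusted p = 0.0418) on the brighter and 0.75 (SE 0.23, limma unadjusted p = 0.00761) on the dimmer feature. Mated hens measured 9.09, 9.25, 8.98 and 9.90 on the brighter feature, a difference of 0.37 (SE 0.27) from control.

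IL1RAPL2 is an accessory-like protein of the IL1 receptor family, known mainly from nervous tissue in mammals. It was 4.72, 5.30, 3.80 and 5.64 in control hens. It was 5.56, 6.10, 5.92 and 5.75 in SF hens. It was 5.55, 5.10, 4.40 and 5.18 in mated hens. SF hens were uniformly high, and their values lay above those of all mated hens (5.56 against 5.55 at the closest) but overlapped those of control hens. The difference between SF and control was 0.97 (SE 0.36, limma unadjusted p = 0.022), and that between mated and SF hens was -0.78 (SE 0.36, limma unadjusted p = 0.056). IL1RAPL2 was the only member without overlap between mated and SF hens, where 1.5% of all features lay lower in mated hens without overlap.

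The gene called IL28B on the array, IFNL3A in the GRCg7b table, encodes an interferon lambda, an antiviral ligand of mucosal epithelium grouped with the IL10 family. It was 4.98, 5.76, 5.42 and 5.54 in control hens. It was 5.60, 6.05, 5.94 and 5.92 in mated hens. It was 5.67, 5.66, 5.15 and 5.36 in SF hens. Values of 3 of the 4 mated hens lay above those of all other hens, and the fourth overlapped both groups. It was the only gene to pass for mating against control (0.45, SE 0.18, limma unadjusted p = 0.0288) and for mating against SF (0.42, SE 0.18, limma unadjusted p = 0.0398), and both differences share the mated hens. Its receptor chain IL28RA (IFNLR1) measured 10.66, 10.33, 10.31 and 10.83 in control hens, 10.55, 10.65, 10.04 and 10.91 in mated hens and 10.53, 10.92, 11.16 and 10.86 in SF hens. The receptor chain thus overlapped in all 3 groups, with differences of 0.00 (SE 0.20) for mating and 0.33 (SE 0.20) for SF.

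**Figure D2:**
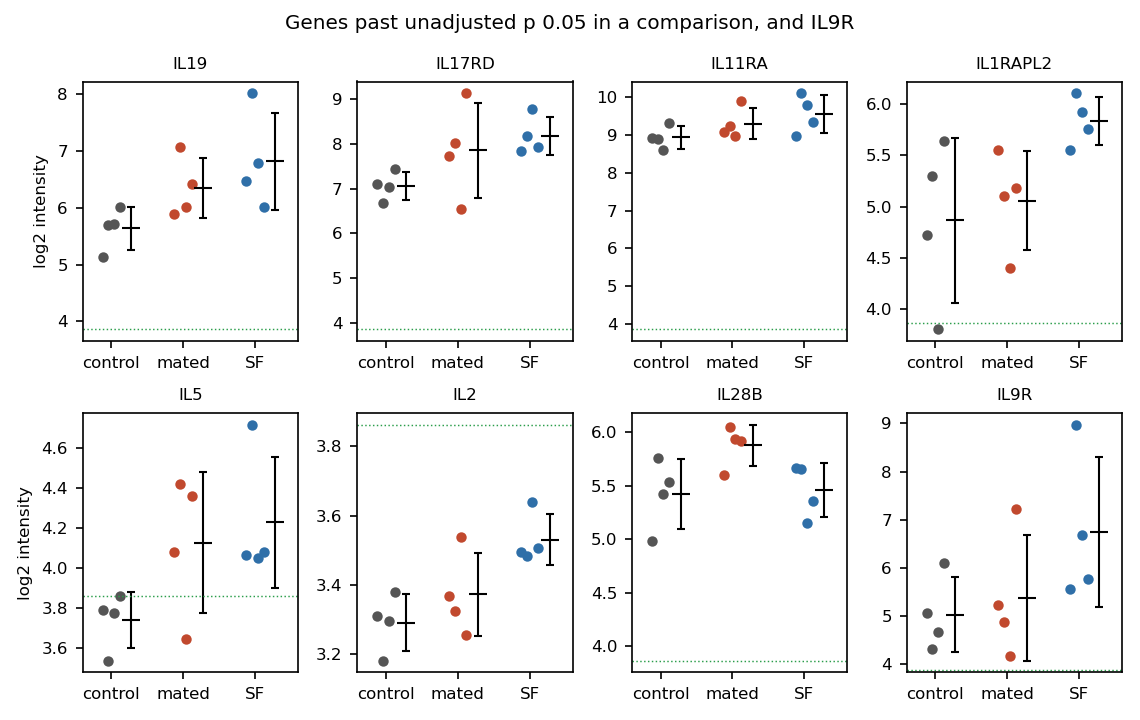
Log2 intensity (vertical axis) of the 7 genes past unadjusted p 0.05 in a comparison, and of IL9R, in control, mated and SF hens. Points are hens in replicate order, the bar is mean ± SD of 4 hens, the dotted line is the mean of the random control and each panel has its own axis. IL19, IL17RD, IL5 and IL2 separate SF from control hens, and all IL2 points lie under the dotted line.

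Most of these calls were lost when one or another single hen was left out. Leaving out a hen also changes the spread shared by the groups, so a call can be lost with its difference unchanged. This was so for IL11RA without mated hen 2 (0.62). In what follows, the values in parentheses are the differences at which a call was lost. The number of genes called for SF was 2 without control hen 2 or without SF hen 2, and 3 without control hen 3 or without SF hen 3. The IL17RD call was lost without any of these hens (0.92 to 1.12). The IL11RA call was lost without any of them, control hen 1 or mated hen 2 (0.44 to 0.62). IL1RAPL2 was lost without control hen 3 or SF hen 2, where it was 0.61 to 0.88. IL5 was lost without control hen 2 or SF hen 2 (0.33 to 0.42), and IL2 without control hen 2 or SF hen 3. IL28B for mating was lost without any of control hens 1 and 3 and mated hens 2, 3 and 4 (0.31 to 0.45), and against SF without any of control hen 3, mated hens 2, 3 and 4 and SF hens 3 and 4 (0.32 to 0.42). IL28B for mating was also lost with array weights (0.34) and with the array number as a covariate (0.36). When the array number was added as a covariate, no SF call was kept, and all had larger SEs. IL11RA (-0.40, SE 0.81) and IL17RD (-0.22, SE 1.37) turned negative. IL19 (1.00, SE 1.31), IL1RAPL2 (1.01, SE 1.18), IL5 (0.52, SE 0.64) and IL2 (0.14, SE 0.29) stayed positive. Array number and group run in the same order, so this fit cannot tell them apart.

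Markers of other cell types also differed between SF and control hens. In this comparison 6.47% of all features passed the unadjusted threshold, and 4.15% passed it with a higher level. Genes of the eggshell gland, taken as a list of 21 measured markers, had a mean level of 10.23 to 12.42 in control and 9.49 to 11.29 in SF hens, with 5 genes lower and none higher at the unadjusted threshold. In mated hens the level of this list was 9.65 to 11.79, with no gene past the threshold. Its median difference from control was -0.59 in both treatments. Of 21 stratified squamous epithelium markers 5 were higher in SF hens (mean level 10.29 to 11.41 in control, 11.16 to 11.67 in SF), as were 5 of 20 ciliated cell markers (11.51 to 12.35 and 12.12 to 12.45). The T lymphocyte list (20 genes, 8.10 to 9.0 in control, 8.50 to 9.13 in SF) and the macrophage and heterophil list (16 genes, 8.85 to 9.40 and 8.91 to 9.50) had no gene past the threshold in either direction. The median difference of the T lymphocyte list from control was nonetheless 0.36 in SF and 0.49 in mated hens. That of the macrophage and heterophil list was -0.12 in SF and 0.28 in mated hens. No marker of these lists was at the random control on every array. Their part in the interleukin differences was not tested.

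The chemokine IL8 showed the widest spread of all 55 genes in mated hens. IL8 draws heterophils, the avian counterpart of neutrophils, and the array carried a feature for each of 2 neighbouring chicken genes, IL8L1 and IL8L2. The IL8L1 feature was 4.92, 3.64, 4.00 and 4.09 in control hens. It was 3.88, 3.90, 3.93 and 9.07 in mated hens. It was 3.63, 3.77, 4.05 and 4.72 in SF hens. Mated hen 4 alone was bright, and of the other 11 values 6 were above the random control. The IL8L2 feature was 3.09, 3.10, 3.04 and 8.56 in mated hens, and among control and SF hens only control hen 1 (4.32) was above the random control. Against the mean of the other mated hens, each raised to the random control where it lay under it, mated hen 4 was at least 35.5-fold brighter for IL8L1 and at least 25.1-fold for IL8L2. Over all 4 mated hens the IL8L1 difference from control was 1.03 (SE 0.99, limma unadjusted p = 0.321), and SF hens differed by -0.12 (SE 0.99).

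IL1B, the main secreted trigger of acute inflammation, followed the same hen. It was 7.31, 6.70, 6.99 and 6.69 in control hens. It was 6.49, 7.12, 6.80 and 9.54 in mated hens. It was 6.59, 6.92, 7.06 and 7.10 in SF hens. Mated hen 4 was 6.66-fold above the mean of the other mated hens, which overlapped both other groups. The mean was 6.92 ± 0.29 in control, 7.48 ± 1.39 in mated and 6.92 ± 0.24 in SF hens (SD, n = 4), with differences of 0.56 (SE 0.54) for mating and -0.00 (SE 0.54) for SF. IL18, an IL1 relative that induces interferon gamma, measured 9.65, 8.95, 8.59 and 10.05 in control, 9.29, 9.67, 8.66 and 10.70 in mated and 9.12, 10.01, 10.07 and 9.63 in SF hens, and again mated hen 4 was highest while the groups overlapped.

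Mated hen 4 held the highest of the 12 values for 21 of the 55 genes (38.2%), beside 12.8% of all named symbols, and 15 of the 21 were receptors. The median of the interleukin genes in this hen was 0.61 above the control mean, and 22 genes were more than 1 above it (7.84% of all named symbols were). The 15 receptors were 1.64-fold to 4.89-fold above the mean of the other mated hens. IL18R1, the binding chain for IL18, was 9.09 in this hen and 6.21 to 7.74 in the other 11. IL21R, the receptor of a T cell help signal, was 9.14 and 5.95 to 7.82. IL2RA, the inducible high-affinity chain for IL2, was 6.59 and 4.28 to 5.67, and IL2RG, the chain shared by the IL2 family, was 9.22 and 7.07 to 8.20. IL7R, the receptor for the T cell survival factor IL7, was 10.38 here and at most 9.73 elsewhere. IL17RD (3.25-fold) and IL22RA1 (3.10-fold), a receptor chain of epithelium, were high in this hen as well. None of the 5 receptors IL18R1, IL21R, IL2RA, IL2RG and IL7R passed the threshold for mating, with differences of 0.14 to 0.72.

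**Figure D3:**
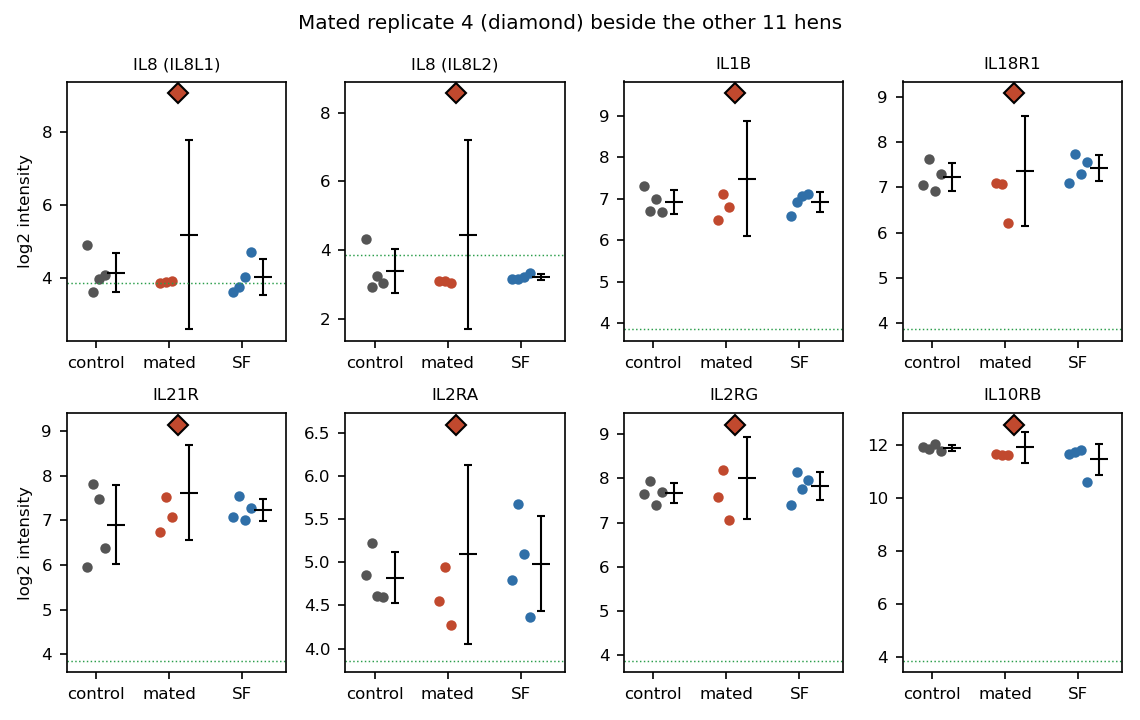
Log2 intensity (vertical axis) of both IL8 features, IL1B and 5 receptors in control, mated and SF hens, with the mean ± SD of 4 hens as a bar, the mean random control as a dotted line and a separate axis for each panel. The diamond is mated hen 4, which is highest in all 8 panels, at 9.07 for IL8L1 and 9.54 for IL1B.

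The T lymphocyte, macrophage and heterophil, and B lymphocyte marker lists were high in the same hen. The mean level of the 20 T lymphocyte markers was 10.03 in mated hen 4 and 8.10 to 9.13 in the other 11, and 19 of the 20 markers were highest there. The 16 macrophage and heterophil markers averaged 10.49 against 8.84 to 9.50, with 12 of 16 highest there, and the 13 B lymphocyte markers 9.24 against 8.36 to 8.79, with 7 of 13 highest. Of the macrophage and heterophil list, CSF3R (7.45, against 7.77 in control hen 1), CATHL2 (5.42, against 5.54 in mated hen 2), CTSS and LYN were not highest there. This joint list does not separate macrophages from heterophils. No marker of these 3 lists was at the random control on every array. The 4 mast cell and eosinophil markers averaged 8.88 in this hen, within the 8.57 to 9.43 of the others, with 1 of 4 highest there. The eggshell gland list was 9.65 in this hen, near the low end of the 9.49 to 12.42 of the others. Its stratified squamous epithelium list was 11.50, near the high end of the 10.29 to 11.67 of the others. The part of leucocyte number, or of these epithelial lists, in the interleukin values of this hen was not tested.

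Mated hen 3 lay at the other end. It held the lowest value for 16 of the 55 genes (29.1%, beside 16.8% of all named symbols), and 15 of the 16 were receptors. IL23R, the receptor chain that holds IL17-producing T cells, was 6.31 there and 7.38 to 9.77 in the other hens. Among all 12 hens it was lowest for the macrophage and heterophil (8.84), ciliated cell (11.45) and smooth muscle (13.23) marker lists. Control hen 3 was nearly equal for the macrophage and heterophil list (8.85). Low interleukin values were not particular to the mated hen. Control hen 3 held the lowest value for 11 of the 55 genes (20%, beside 8.99% of all named symbols). The median of the interleukin genes against the control mean was -0.16 in control hen 3 and -0.23 in mated hen 3. Lowest in mated hen 3 were 4 of 16 macrophage and heterophil, 11 of 20 ciliated cell and 4 of 7 smooth muscle markers. The T lymphocyte list of mated hen 3 (8.35) was within the range of control hens. Their part was not tested. IL23R differed by 0.33 (SE 0.70) between mated and control hens, less than between single mated hens.

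**Figure D4:**
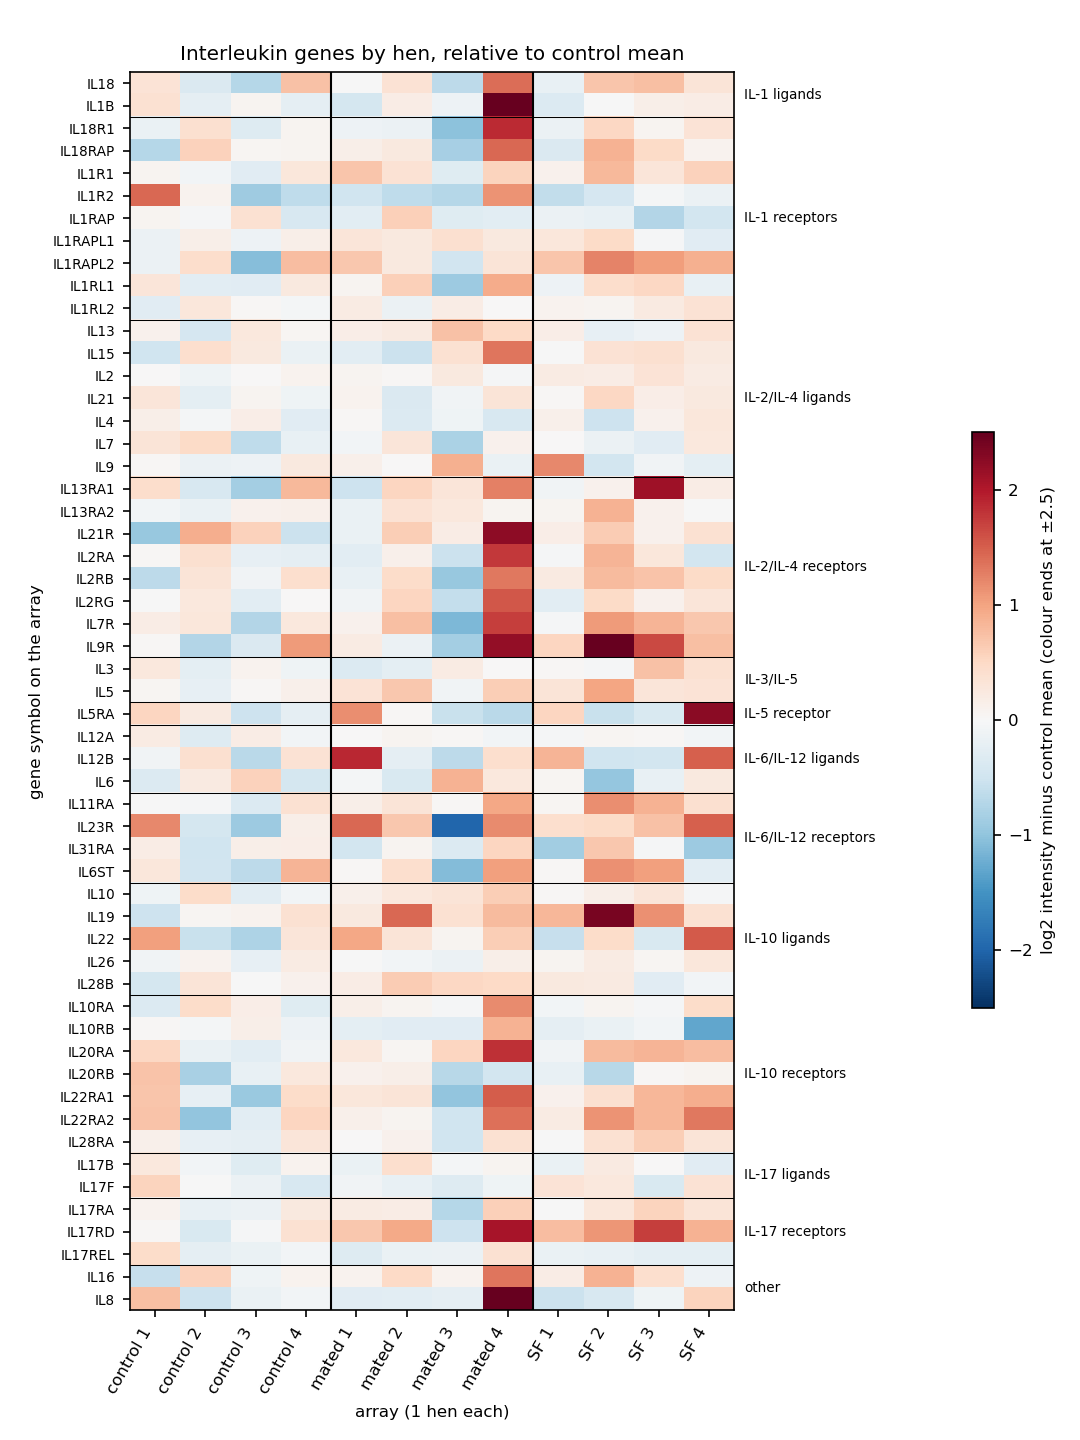
Log2 intensity minus the mean of the control hens (colour, red higher, blue lower) for the 55 genes, grouped by family, in each of the 12 hens. Mated hen 4 is red across many receptors and darkest at IL8 and IL1B, and mated hen 3 is blue for many of the same receptors.

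**Figure D5:**
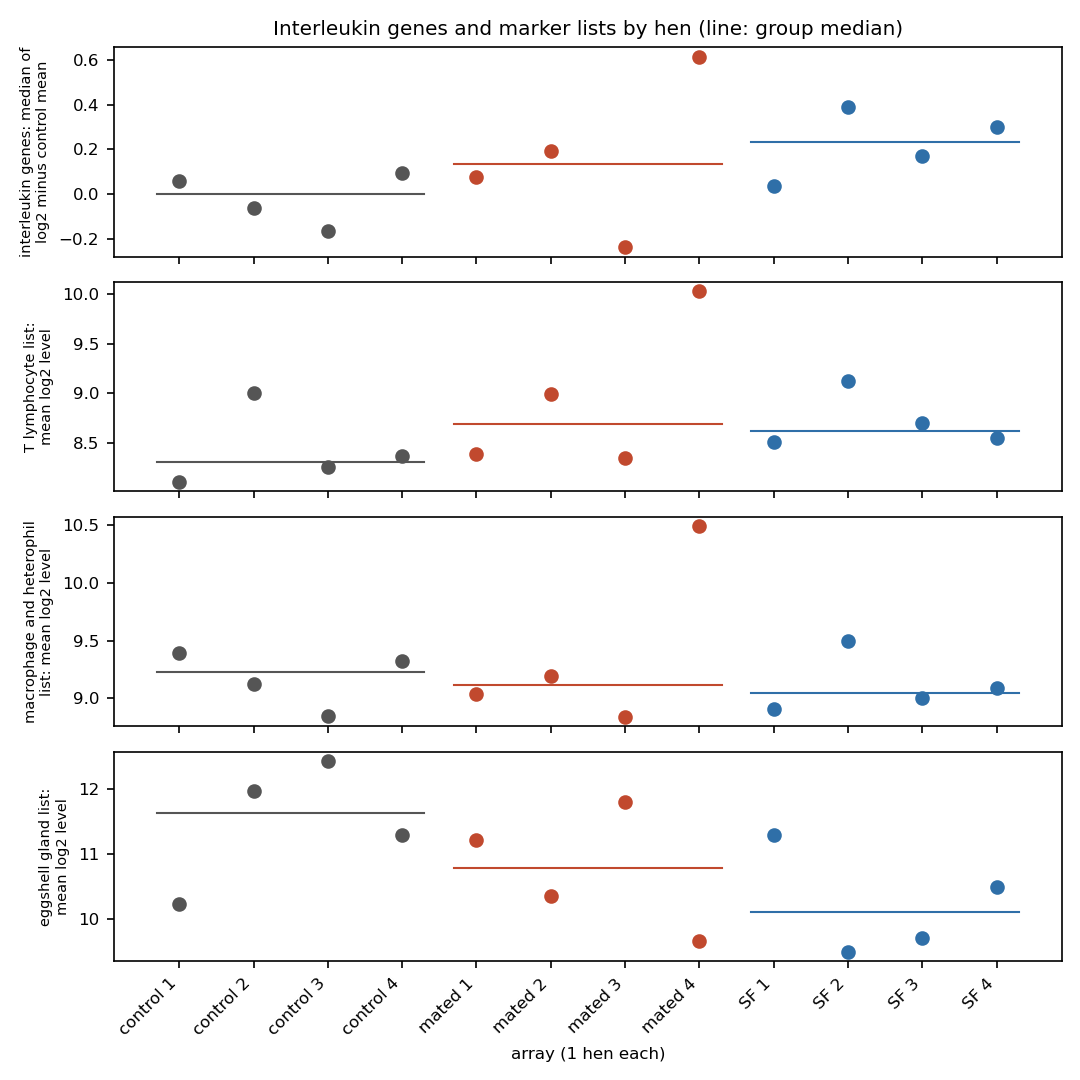
Median over the 55 interleukin genes of log2 intensity minus the control mean (top), and mean log2 level of the T lymphocyte, macrophage and heterophil, and eggshell gland marker lists, for each hen, with group medians as lines. Mated hen 4 is highest in the upper 3 panels, at 0.61 for the interleukin genes and 10.03 and 10.49 for the leucocyte lists.

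In the IL1 receptor family, the signalling receptor IL1R1, the shared accessory chain IL1RAP and IL1RL2, the receptor for IL36, are given in full because their features were bright in control hens, which is no rank of expression between genes. IL1R1 was 10.66, 10.54, 10.32 and 10.88 in control hens, 11.28, 10.96, 10.30 and 11.16 in mated hens and 10.71, 11.41, 10.89 and 11.18 in SF hens. The SF difference was 0.45 (SE 0.23, limma unadjusted p = 0.0715). IL1RAP was 11.11, 11.01, 11.43 and 10.65 in control hens, 10.78, 11.64, 10.75 and 10.80 in mated hens and 10.91, 10.86, 10.32 and 10.59 in SF hens, an SF difference of -0.38 (SE 0.23). The ligand-binding and the accessory chain of this receptor thus had differences of opposite sign, neither past the threshold.

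IL1RL2 was steady in all hens, at 11.10, 11.67, 11.42 and 11.33 in control, 11.58, 11.23, 11.56 and 11.39 in mated and 11.46, 11.45, 11.61 and 11.74 in SF hens. IL1R2, IL1R1, IL1RL2, IL1RL1, IL18R1 and IL18RAP are 6 consecutive protein-coding genes in the GRCg7b table. The consecutive genes IL1RL1, the receptor for IL33 in mammals, IL18R1 and IL18RAP, the chains of the IL18 receptor, were highest in mated hen 4 and lowest in mated hen 3, and IL1R1 was lowest in mated hen 3 too. IL1R2, a decoy for IL1, was instead highest in control hen 1 (7.34) and next in mated hen 4 (7.02), with 5.01 to 5.98 in the other 10 hens. IL1RAPL1, a relative of IL1RAPL2, was the only gene whose mated values all lay above the control values (3.87 to 4.03 against 3.49 to 3.77, a gap found upward in 0.843% of all features), and its control values were all under the random control.

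In the IL2 and IL4 families, all 8 receptor genes had positive differences in both treatments and none passed the threshold. Without mated hen 4, 5 of the 8 were negative for mating (-0.27 to 0.21). IL9R, the receptor for a mast cell and T cell factor, had the largest SF difference of all 55 genes. It was 5.05, 4.30, 4.65 and 6.10 in control hens. It was 5.56, 8.97, 6.68 and 5.77 in SF hens. It was 5.23, 4.87, 4.17 and 7.22 in mated hens. SF hen 2 lay far above the rest and the groups overlapped, so that the difference of 1.72 had an SE of 0.81 (limma unadjusted p = 0.0569). IL7R differed by 0.64 (SE 0.51) and IL13RA1, a chain of the receptor for IL13 and IL4, by 0.58 (SE 0.55) in SF hens. IL9R and IL21R are direct neighbours in the GRCg7b table, yet IL9R was highest in SF hen 2 and IL21R in mated hen 4.

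Of the 7 ligands of these families, IL2 and IL21 were under the random control on every array and IL9 on most of them. IL15, which maintains natural killer and memory T cells, was 9.35, 10.25, 10.08 and 9.67 in control hens. It was 9.58, 9.30, 10.22 and 11.18 in mated hens. It was 9.83, 10.20, 10.24 and 10.08 in SF hens. Only mated hen 4 exceeded the control range, and the differences were 0.23 (SE 0.36) for mating and 0.25 (SE 0.36) for SF. IL13, a cytokine of mucosal type 2 responses, differed by 0.40 (SE 0.19, limma unadjusted p = 0.0525) in mated and by 0.05 (SE 0.19) in SF hens. IL4, which directs the same response, lies next to IL13 in the GRCg7b table and differed by -0.21 (SE 0.18) in mated hens.

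In the IL6 and IL12 families, IL6, an inducer of fever and acute-phase proteins, did not follow IL8 and IL1B. It was 7.98, 8.56, 8.90 and 7.89 in control hens. It was 8.28, 7.95, 9.20 and 8.61 in mated hens. It was 8.39, 7.36, 8.14 and 8.59 in SF hens. The highest value was that of mated hen 3 and the lowest that of SF hen 2, and the groups overlapped, with differences of 0.18 (SE 0.34) for mating and -0.22 (SE 0.34) for SF. Its other 2 features placed SF hen 2 lowest as well. IL6ST, the signal-transducing chain for IL6, IL11 and LIF, differed by 0.49 (SE 0.50) and IL23R by 0.78 (SE 0.70) in SF hens. IL12A, a subunit of IL12, stayed between 6.53 and 7.04 in all 12 hens.

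In the IL10 family, IL10, the main cytokine that restrains inflammation, was 6.14, 6.71, 5.99 and 6.18 in control hens. It was 6.39, 6.51, 6.57 and 6.87 in mated hens. It was 6.29, 6.40, 6.55 and 6.23 in SF hens. Mated hens all lay above 3 of the 4 control hens, and the difference of 0.33 (SE 0.16, limma unadjusted p = 0.0647) fell short of the threshold, with 0.11 (SE 0.16) in SF hens. Its second feature gave 0.48 for mating (SE 0.24, limma unadjusted p = 0.0692). IL10RB, the chain shared by receptors of the family, was 11.93, 11.85, 12.06 and 11.78 in control, 11.65, 11.62, 11.63 and 12.78 in mated and 11.68, 11.74, 11.83 and 10.61 in SF hens. Apart from mated hen 4, which was high, and SF hen 4, which was low, all IL10RB values lay within 11.62 to 12.06.

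IL22, which acts on epithelial barriers, was 7.43, 5.84, 5.63 and 6.72 in control, 7.38, 6.72, 6.48 and 7.02 in mated and 5.82, 6.86, 6.02 and 7.93 in SF hens. The SD of control (0.83) and SF hens (0.96) exceeded the differences of 0.49 (SE 0.50) for mating and 0.25 (SE 0.50) for SF. Its decoy receptor IL22RA2 was 7.47 to 8.58 in SF and 6.27 to 7.98 in control hens and differed by 0.87 (SE 0.45, limma unadjusted p = 0.082). The neighbouring IL20RA, a receptor chain for IL19 and its relatives, differed by 0.59 (SE 0.37) in SF and 0.67 (SE 0.37) in mated hens. IL22RA1, the signalling chain for IL22, differed by 0.56 (SE 0.49) in SF hens.

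In the IL17 family, which calls heterophils to mucosae, no ligand passed the threshold in any comparison. The feature of IL17A, deposited under the name IL17F, was 5.11, 5.39, 5.43 and 5.40 in control, 5.46, 5.66, 5.42 and 5.63 in mated and 5.31, 5.15, 5.06 and 5.64 in SF hens. IL17F itself differed by 0.14 (SE 0.21) in SF and -0.17 (SE 0.21) in mated hens, and IL17B by -0.06 (SE 0.17) and 0.07 (SE 0.17). IL17RA, a receptor chain shared by IL17A and IL17F, differed by 0.29 (SE 0.24) in SF hens. IL16, a chemoattractant of CD4 T cells outside these families, was highest in mated hen 4 at 10.71, against 8.80 to 10.24 in the others.

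Downstream of the receptors, a list of 38 measured kinases, transcription factors, suppressors and adaptors of interleukin signalling had small median differences. None passed the threshold for mating or for SF against control, where 2.22% and 6.47% of all features passed. The medians were 0.04 and 0.01. SF and control values did not overlap for MYD88, higher in SF hens (12.25 to 12.44 against 11.74 to 12.08). In 2.47% of all features SF values lay above control values in this way. TRAF6 was lower in SF hens without overlap (10.11 to 10.24 against 10.34 to 10.42), and the share of all features so placed was not counted. TRAF2, an adaptor towards NF-kB, was the only gene past the threshold between mated and SF hens, where 4.7% of all features passed. Its difference was 0.54 (SE 0.22, limma unadjusted p = 0.0347). SF hens 2 and 4 were low at 11.24 and 11.12, and the other hens lay between 11.92 and 12.45. The mean level of the list was 11.97 in mated hen 4 and 11.37 to 11.61 in the others, and 19 of its 38 genes were highest there.

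A further list held 21 measured cytokines and receptors that share chains or receptor families with the interleukins. None passed the unadjusted threshold for mating against control, where 2.22% of all features passed. For SF against control 2 were higher and 1 lower, where 6.47% of all features passed and 4.15% were higher. Between mated and SF hens 1 was lower in mated hens, where 4.7% of all features passed. LIF, an IL6 relative that signals through IL6ST, was 7.92, 8.24, 8.29 and 8.71 in control hens and 8.61, 10.77, 9.52 and 8.67 in SF hens, a difference of 1.10 (SE 0.49, limma unadjusted p = 0.0452). SF hen 2 was again highest, as for IL19, IL9R, IL11RA and IL6ST. This hen was also highest of all 12 for the endothelium (11.64) and erythrocyte (9.68) marker lists and lowest for the eggshell gland list (9.49). It was next to highest for the T lymphocyte (9.13), macrophage and heterophil (9.50) and B lymphocyte (8.79) lists. The part of these lists was not tested. Interferon beta (IFNB) was 8.41, 8.12, 8.20 and 8.12 in control hens and 8.01, 7.73, 7.98 and 7.16 in SF hens. Every SF value lay under all control values, with SF hen 4 lowest (-0.49, SE 0.21, limma unadjusted p = 0.0433). The share of all features lower in SF hens without overlap was not counted. Mated hens measured 7.92, 8.06, 8.72 and 8.04, and all but mated hen 3 lay under the control values too.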

How the data were processed

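The authors hybridised Cy3-labelled cDNA of single hens to a custom NimbleGen array and deposited linear intensity values after robust multichip averaging (RMA) in DEVA 1.2.1 (background adjustment, quantile normalisation and summarisation of mostly 3 probes per feature). RMA and limma are the tools that the submitters' processing notes give. The genome build of the array design is not given in the sources used here, so no coordinates are printed. Log2 was taken without a pseudocount. Group means of all 12 arrays were fitted together with limma 3.58.1 (R 4.3.3, empirical Bayes), and two-sided p-values over 37374 features received Benjamini-Hochberg adjustment. The fit was tested on simulated data.

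Symbols were read from the feature names, with the species suffix of IL6 and IL10 removed. The table of the GRCg7b assembly matched 53 of 55 symbols (not IL17B and IL19) and was used for current names and gene order. A value not above the array's random-sequence control was treated as background. Only 4 arrays a group limit the precision.

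Every array was given for genes past unadjusted p 0.05, for the 5 brightest members in control hens and for chosen cytokines. Other genes were named by the size of their SF difference within a family or, in single hens and among neighbouring genes, after their values were seen. The members, families and marker lists were chosen with earlier results of these data known. Alternatives were other normalisations, the series table, a filter on dim features, other designs and variance settings, the mean over features, and leaving out each array. A gene of the related cytokine list is not reported here.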

Additional observations from a re-analysis of the deposited data

Results flagged for a closer look

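Among the 165 sets of 4 hens (55 genes in 3 groups), 14 had a hen far from the others by Dixon's criterion. This criterion flags about 1 in 20 sets of independent, normally distributed values. The share flagged over all features was not counted, so 14 of 165 is not read as particular to these genes. In mated hen 4, IL8 (9.07, others 3.88 to 3.93), IL10RB (12.78, others 11.62 to 11.65), IL10RA (10.85, others 9.64 to 9.81) and IL1R2 (7.02, others 5.17 to 5.40) stood high. IL1RAP stood high in mated hen 2 (11.64, others 10.75 to 10.80). Among SF hens, IL13RA1 in hen 3 (11.43, others 9.22 to 9.49), IL13RA2 in hen 2 (11.15, others 10.29 to 10.40), IL5 in hen 2 (4.72, others 4.05 to 4.08) and IL2 in hen 3 (3.64, others 3.48 to 3.51) stood high. IL10RB in SF hen 4 (10.61, others 11.68 to 11.83), IL17F in SF hen 3 (5.33, others 5.96 to 6.07) and IL20RA in SF hen 1 (5.74, others 6.59 to 6.68) stood low. In control hens IL31RA was low in hen 2 (8.07, others 8.70 to 8.74) and IL7R in hen 3 (7.93, others 8.84 to 8.95).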

How the results depend on the processing

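Median centring, the series table and the trended variance kept the number of genes past the unadjusted threshold in all 3 comparisons. For mating against control this number was 1 and became 2 with quantile normalisation or the mean of all features, 3 with only the 2 groups in the fit or with array weights (IL17RD, IL1R1 and IL5, without IL28B), and 0 without dim features or with the array number as a covariate. For SF against control it was 6 and became 2 without dim features, and 0 with the array number. The dim filter left 25 of the 55 genes and took out IL19, IL1RAPL2, IL5 and IL2, which were therefore not tested. For mating against SF it was 1 and became 2 with only 2 groups, 2 with the array number (IL28B not among them), 3 with array weights and 0 without dim features, where IL28B was again filtered out. The array number gave medians of -0.069 for mating and -0.23 for SF against control, turned IL11RA to -0.40 and IL17RD to -0.22 for SF, and gave the signalling list medians of -0.10, -0.19 and 0.16 in the 3 comparisons. Array number and group run in the same order, so a fit with both cannot tell them apart, and the cause was not tested. Leaving out each array gave 0 to 4 genes for mating, 2 to 9 for SF and 0 to 5 for mating against SF. Medians then ran from -0.054 to 0.42 for mating. The 5 genes without mated hen 4, all lower in mated than in SF hens, were IL18R1, IL22RA2, IL28RA, IL2RB and IL9R. The share of all features passing was counted for the main fit only. The counts from the other fits are therefore not read as particular to the interleukin genes.

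The labels tie no hens of different groups by their replicate number, and deviations of same-numbered hens correlated at -0.36 to 0.62, so that the numbers were not taken as pairs. With the replicate block 2 genes passed for mating, 7 for SF and 3 for mating against SF, and the share of all features was not counted here either. The 10 genes not above the random control on every array (IL2, IL21, IL26, IL17REL, IL9, IL5RA, IL1RAPL1, IL8, IL5 and IL1RAPL2) have differences limited by background.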
